A study of Arabidopsis thaliana with 6 samples.

Results

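WAG2, YUC2, YUC4 and YUC6 are genes of auxin supply in Arabidopsis thaliana. Their expression was followed in stems treated with an inhibitor of auxin transport and in mock control stems. WAG2 (AT3G14370) encodes a protein kinase that phosphorylates PIN proteins, the carriers that export auxin from cells. YUC2 (AT4G13260), YUC4 (AT5G11320) and YUC6 (AT5G25620) encode flavin monooxygenases of the YUCCA family, which carry out the last step of auxin synthesis. The 4 genes were picked by name for these functions through the platform's gene table, with earlier results of these data known. They are 4 of the 13355 genes to which that table gave a probe set not shared with another gene, and each had exactly 1 probe set (258367_at, 254758_at, 250389_at and 246900_at in the order above).

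Auxin is made mainly in young leaves, flowers and buds and moves down the stem from cell to cell. In the main route of synthesis, TAA1 and its relatives convert tryptophan to indole-3-pyruvate, and YUCCA enzymes convert that to indole-3-acetic acid. PIN carriers then set the direction of flow, and WAG2, with its relatives PID, PID2 and WAG1, phosphorylates them. Auxin that accumulates in the stem promotes the cambium, the layer of dividing cells that thickens it.

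All plants were wild type of the Columbia strain (Col), kept in short days (8 h light, 16 h dark) for 3 weeks before a switch to long days. Stem fragments 3 mm long, lying 2.5 cm above the stem base, were taken after 7 days from plants in 2 groups of 3 samples. One group was treated with 10 mg/g NPA, an inhibitor of polar auxin transport, and the other was the mock control. The labels do not say how NPA was applied, what the mock treatment held, or if replicates were separate plants. The p-values therefore reflect the spread among these samples alone, and that spread may be technical. One Affymetrix array was used per sample, with total RNA, and values are log2 expression values of the 22746 probe sets tested, so that a difference of 1 is a 2-fold change.

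The arrays were alike, with Pearson's r over probe sets of 0.989 to 0.993 within groups and 0.982 to 0.991 between them. The groups separated on the first principal component, which held 42.65% of the variance, with mock at -30.4 to -17.6 and NPA at 18.3 to 28.7. Mock 1 and NPA 3 stood apart from the other 4 arrays on the second principal component, which held 21.9% of the variance. By limma's test, with calls made at an adjusted p under 0.05, 683 probe sets (3.00% of those tested) were called. The higher ones in NPA numbered 628 (2.76%) and the lower ones 55 (0.242%). After centring of the arrays on their medians the split was 391 higher and 97 lower, because the array medians lay 0.11 higher in NPA than in mock.

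Of the 4 genes, WAG2 rose after NPA treatment and the 3 YUC genes did not pass the test. WAG2 was 2.96-fold higher in NPA than in mock (95% interval 1.92 to 4.56, n = 3 each). YUC2 and YUC4 differed by -0.15 and -0.13 on the log2 scale, and YUC6 by 0.01. So 1 of 4 genes rose and 0 fell, beside 2.76% and 0.242% of all probe sets, with 0 of the 3 YUC genes at an unadjusted p under 0.05 by limma, where 16.3% of all probe sets were. Stem pieces hold many cell types, and more cells that express a gene cannot be told apart here from more RNA per cell.

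WAG2 was at 4.28, 4.43 and 3.86 on mock arrays 1, 2 and 3, and at 6.36, 5.51 and 5.40 on NPA arrays 1, 2 and 3. Every NPA array lay above every mock array, with a gap of 0.96 between the lowest NPA value and the highest mock value. Such groups without overlap were seen in 22.3% of all probe sets, and in 14.8% with NPA higher. The mean went from 4.19 ± 0.29 to 5.76 ± 0.52 (SD, n = 3 each), a difference of 1.56 with a standard error of 0.27 (limma, adjusted p = 0.0255). This was the rise of rank 53 among the 22746 probe sets.

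The mock level of WAG2 was low. The lower quartile of the arrays lay between 4.16 and 4.31, and WAG2 was at or just above it on mock 1 and mock 2 and below it on mock 3. On the NPA arrays 39.8% to 49.7% of probe sets had lower values than WAG2, against 17.7% to 28.5% on the mock arrays. Whether a transcript was detected is not recorded in the deposited values, and the fold is therefore not exact. Among the 5687 probe sets whose mock mean was below 4.22, the lower quartile of the mock means, 21 rose in NPA, or 0.369%, and WAG2 was 1 of them.

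The NPA arrays also differed among themselves. WAG2 was highest on NPA 1, 0.84 above NPA 2, and NPA 2 and NPA 3 differed by 0.12. The pooled SD of WAG2 within groups was 0.42, wider than in 95.8% of the probe sets. Without NPA 1 the difference was 1.26 and the call stayed (adjusted p = 0.0379), and without NPA 3 it was 1.74 (adjusted p = 0.0387). The call was lost without mock 1 (adjusted p = 0.0720), mock 2 (adjusted p = 0.0568), mock 3 (adjusted p = 0.0805) or NPA 2 (adjusted p = 0.0760), although in these 4 fits the difference was 1.40 to 1.69.

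**Figure D1:**
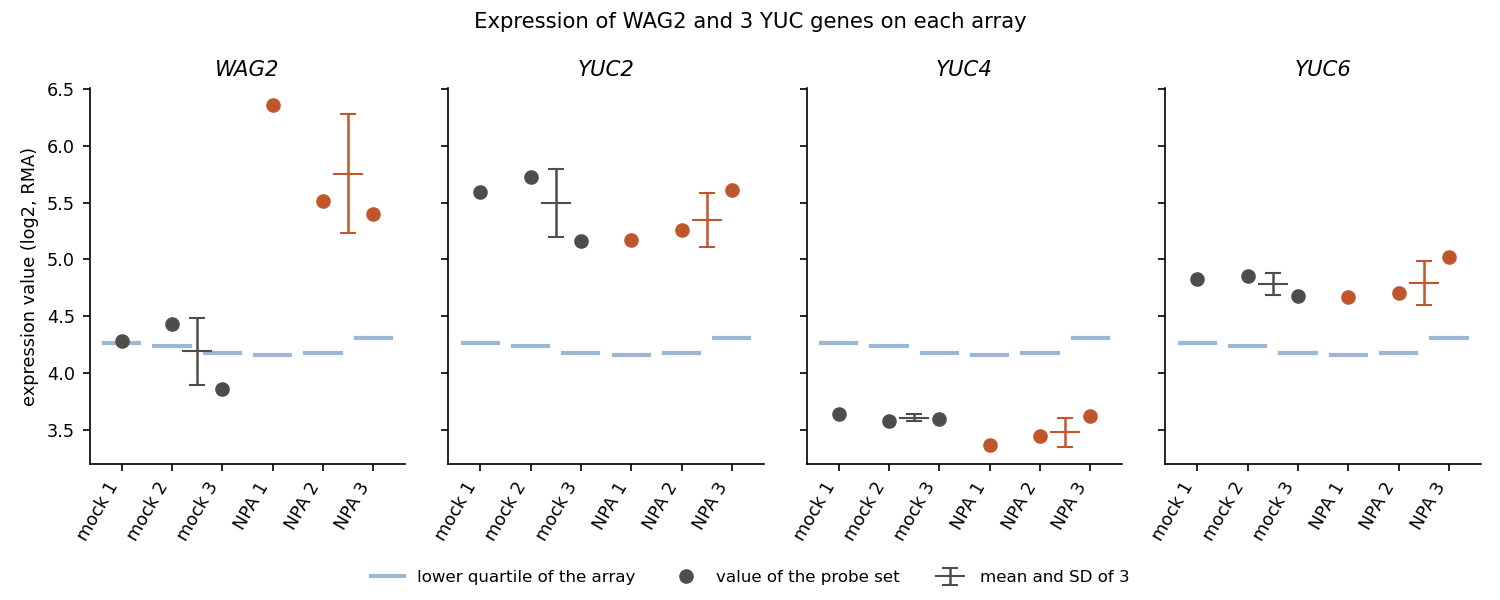
Expression value (log2, RMA) of each gene on each of the 6 arrays, with the mean and SD of the 3 arrays of a group and, as blue bars, the lower quartile of all probe sets on that array. The WAG2 values lie at 3.86 to 4.43 in mock and 5.40 to 6.36 in NPA, while the mock and NPA values of each YUC gene overlap.

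YUC2 acts with other YUCCA genes in leaves and flowers. It was at 5.60, 5.73 and 5.16 on mock arrays 1, 2 and 3, and at 5.17, 5.25 and 5.61 on NPA arrays 1, 2 and 3. The groups overlapped, with both a low and a high value in each. The means were 5.49 ± 0.30 in mock and 5.34 ± 0.24 in NPA (SD, n = 3 each), a difference of -0.15 with a standard error of 0.18 (limma, adjusted p = 0.748). The 95% interval of the difference ran from -0.57 to 0.27.

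YUC4, which acts with YUC1 in flowers and vascular tissue, had the lowest values relative to the arrays. It was at 3.642, 3.578 and 3.597 on mock arrays 1, 2 and 3, and at 3.37, 3.44 and 3.62 on NPA arrays 1, 2 and 3. All 6 values lay below the lower quartile of their array, and from 5.41% to 10.7% of probe sets were lower still. NPA 1 and NPA 2 lay below the mock arrays and NPA 3 lay within their range. The difference was -0.13 with a standard error of 0.10 (limma, adjusted p = 0.586) and a 95% interval from -0.36 to 0.10. At this level it is not known whether the probe set measured its transcript, so the interval holds for the signal and not for a transcript known to be present.

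YUC6, known from a dominant allele that raises auxin levels, was at 4.83, 4.85 and 4.67 on mock arrays 1, 2 and 3. On NPA arrays 1, 2 and 3 it was at 4.67, 4.70 and 5.02. NPA 3 was the highest of the 6 arrays and NPA 1 the lowest, so the NPA range enclosed the mock range. The means were 4.78 ± 0.10 and 4.80 ± 0.19 (SD, n = 3 each), and the difference of 0.01 had a standard error of 0.12 (limma, adjusted p = 0.976) and a 95% interval from -0.27 to 0.30. Its sign was not fixed, as it was -0.097 with arrays centred on their medians and -0.0995 without NPA 3.

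The 3 intervals leave out a 2-fold change of the signal in either direction, and that of YUC2 reaches as far as a 1.49-fold lower level in NPA. For YUC4, whose signal was below the lower quartile on all arrays, this cannot be carried over to the transcript. A smaller change could have been missed. With the standard errors found, a difference would have had to reach 0.88 for YUC2, 0.49 for YUC4 and 0.60 for YUC6 to match the smallest t-statistic among the called probe sets. For WAG2, with its wider spread, that size was 1.30.

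**Figure D2:**
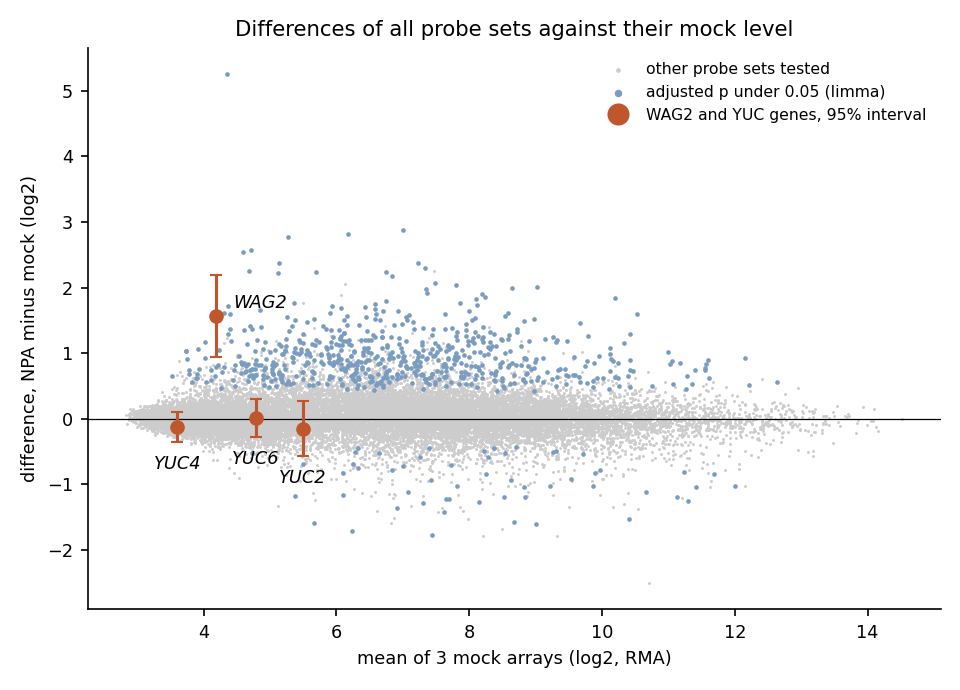
Difference between NPA and mock (log2) against the mean of the 3 mock arrays (log2, RMA) for all 22746 probe sets, with called ones in blue and the 4 genes with their 95% intervals in orange. WAG2, at a mock mean of 4.19, lies 1.56 above 0, and the intervals of YUC2, YUC4 and YUC6 all include 0.

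The 3 YUC genes had the same order on the NPA arrays, but not on the mock arrays. Of the NPA arrays, NPA 3 was the highest for all 3, and on it YUC2 was 0.27, YUC4 0.14 and YUC6 0.22 above the NPA mean of the gene. NPA 3 was also the highest NPA array for YUC11 and PID2, described below, but not for SPT or WAG2. The share of all probe sets highest on NPA 3 was not counted. The lower quartile of NPA 3, at 4.31, was the highest of the 6 arrays, followed by 4.26 on mock 1 and 4.24 on mock 2. These were the 3 arrays on which YUC2 and YUC6 were highest. YUC4 did not follow this order, with mock 2 (3.578) below mock 3 (3.597). With each array centred on its lower quartile, a setting added after the data were examined, the differences were -0.14 for YUC2, -0.12 for YUC4 and 0.02 for YUC6, and none was called. On that scale the YUC4 groups no longer overlapped, at -0.66 to -0.58 from the quartile in mock and -0.79 to -0.69 in NPA (adjusted p = 0.588 by limma). Groups without overlap were 22.3% of all probe sets on the deposited scale and were not counted on this one, so little can be read from this separation. WAG2 did not follow the order of the quartiles, since its highest value was on NPA 1, the array with the lowest quartile of 4.16.

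Within each array WAG2 was also set against the YUC genes, which removes a shift of the array that is equal at all levels. A shift that depends on level would not cancel. WAG2 minus YUC2 was -1.32, -1.30 and -1.30 on mock arrays 1, 2 and 3, and 1.19, 0.26 and -0.22 on NPA arrays 1, 2 and 3. The groups did not overlap, and the mean rose by 1.72. The corresponding change was 1.69 for WAG2 minus YUC4 and 1.55 for WAG2 minus YUC6, again without overlap of the groups. Each of the 3 contrasts had a two-sided exact permutation p of 0.1, which is the lowest value possible with 3 and 3 arrays, and 0.05 is out of reach. This outcome was set by WAG2 alone. Its gap of 0.96 between the groups exceeded the full range over all arrays of YUC2 (0.57), YUC4 (0.27) and YUC6 (0.35). The contrasts therefore add no support beyond the WAG2 values. With single arrays left out the 3 changes stayed between 1.19 and 2.03.

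Other genes of the pathway were looked up from 7 lists of auxin synthesis, precursors, PIN kinases and their partners, carriers, inactivation, receptors and ARF factors, and regulators. Of 145 genes listed 18 were measured, the 4 genes included, and 3 of the 18 rose and 0 fell, against 2.76% and 0.242% of all probe sets. The 3 were WAG2 itself, GH3.3 and GH3.5. The lists were chosen with earlier results of these data known, so the counts are a description and no test of the pathway. The gene table pairs 5 of the listed names with no locus (PAX, PDK2, IGPS, DAO1 and DAO2), and these were not counted. At the loci that were proposed for them without support of the tables, all 5 were measured, and 4 of 23 genes rose and 0 fell. The lists of precursors, carriers, and receptors and ARF factors had 0 measured genes among the matched names, so no PIN gene is described here. In the synthesis list 4 of 14 genes were measured, the 3 YUC genes and YUC11, a family member known from seeds. YUC11 was at 4.08, 4.28 and 4.24 in mock and 3.82, 4.14 and 4.29 in NPA, and the groups overlapped. Its difference was -0.12 (95% interval -0.44 to 0.20, limma, adjusted p = 0.744). So 0 of 4 measured synthesis genes were called, beside 3.00% of all probe sets, and a count of 0 among 4 is close to that share. The median of their differences was -0.12, against 0.016 over all probe sets.

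Of 23 genes for kinases and other proteins that act on PIN carriers, 2 were measured under a matched name, WAG2 and its relative PID2. PID2 was at 3.76, 3.70 and 3.70 in mock and 3.80, 3.63 and 4.25 in NPA, below the lower quartile on all 6 arrays. Only NPA 3 was clearly above the rest, and the difference was 0.17 (95% interval -0.20 to 0.54, adjusted p = 0.668). So 1 of 2 rose, beside 2.76% of all probe sets, and that 1 was WAG2 itself. This count may miss a called gene. AT2G44830, which may be the listed PAX but has no name in the tables, went from 6.07 ± 0.18 in mock to 7.33 ± 0.15 in NPA (SD, n = 3 each), a difference of 1.26 (limma, adjusted p = 0.00436). AT3G10540, likewise perhaps the listed PDK2, differed by 0.45 (adjusted p = 0.146), and with both the count would be 2 of 4. Whether WAG2 and PID2 differed in their response was not tested.

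Among 6 genes of auxin inactivation measured under a matched name, of 20 listed, 2 rose and 0 fell, beside 2.76% and 0.242% of all probe sets. Their median difference was 0.17. GH3.3, an enzyme that joins auxin to amino acids, rose from a mock range of 4.08 to 4.68 to an NPA range of 8.995 to 10.694 (limma, adjusted p = 0.00237). GH3.5 (WES1), of the same family, rose from 5.13 to 5.51 in mock to 7.57 to 8.66 in NPA (adjusted p = 0.00396). Both were highest on NPA 3, the array on which WAG2 had its lowest NPA value. The other 4 genes (GH3.1, GH3.9, GH3.17 and UGT84B1) differed by -0.12 to 0.35, and GH3.9 alone of them had an unadjusted p under 0.05.

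Of 20 listed transcription factors known to regulate YUC genes or WAG2, 6 were measured and 0 were called, beside 3.00% of all probe sets. Their median difference was -0.05. NGA2, of the NGATHA family that promotes YUC2 and YUC4 in the style, had the lowest p. It was at 4.33, 4.23 and 4.06 in mock and 3.82, 3.92 and 4.06 in NPA, on 5 of 6 arrays below the lower quartile, and differed by -0.27 (limma, unadjusted p = 0.0426, adjusted p = 0.285). SPATULA (SPT), a partner of INDEHISCENT, a factor that activates WAG2 in the fruit, was clearly above the lower quartile at 7.45 ± 0.13 in mock and 7.36 ± 0.16 in NPA (SD, n = 3 each) and differed by -0.08 (adjusted p = 0.797).

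**Figure D3:**
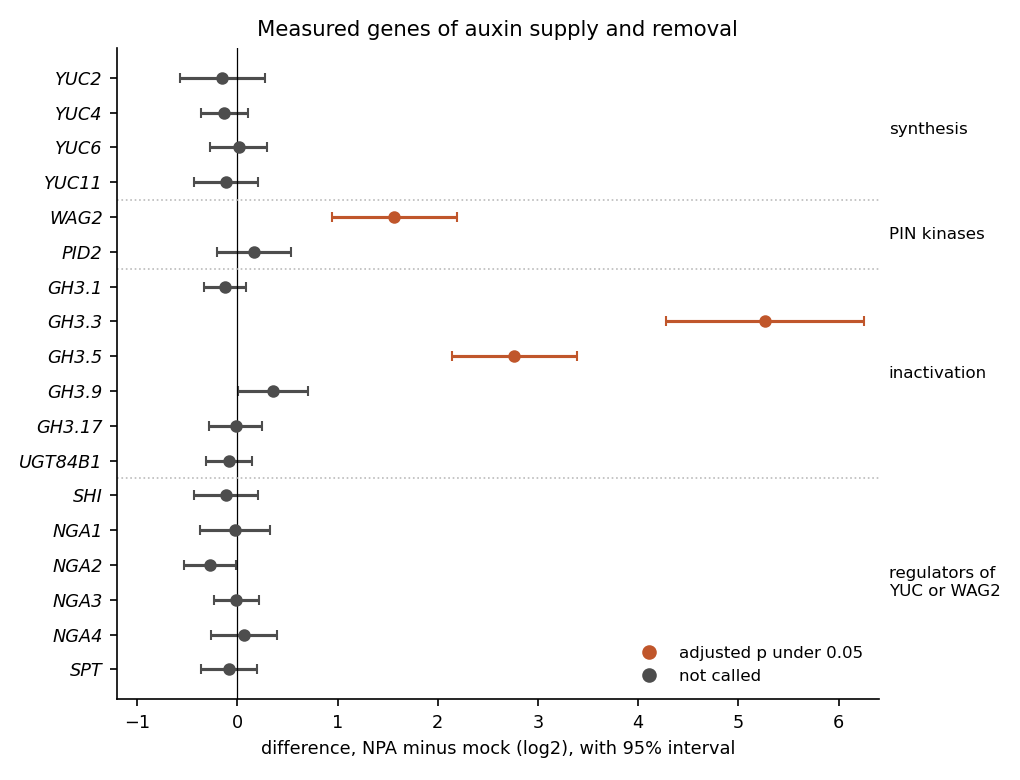
Difference between NPA and mock (log2) with its 95% interval for the 18 genes of the lists measured under a matched name, grouped by role, with called genes in orange. WAG2, GH3.3 and GH3.5 are called, and the 4 YUC genes lie between -0.15 and 0.01.

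Likeness of pattern was measured as the root mean square difference between the 6 values of a gene and those of WAG2, each centred on its own mean over the 6 arrays. Over the 13512 other probe sets with 1 gene its median was 0.87. The 5 most like WAG2 were AT5G46115 (0.23), AT4G18630 (0.24), GH9C2 (0.24), AT4G13190 (0.28) and EXPA4 (0.29). GH9C2 belongs to a family of cellulose-cleaving glycosyl hydrolases, and EXPA4 is an expansin, a protein that loosens cell walls. All 5 were higher in NPA without overlap, by 1.18 to 1.72, which their choice by likeness favours, and none came as close to WAG2 as 0.2.

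**Figure D4:**
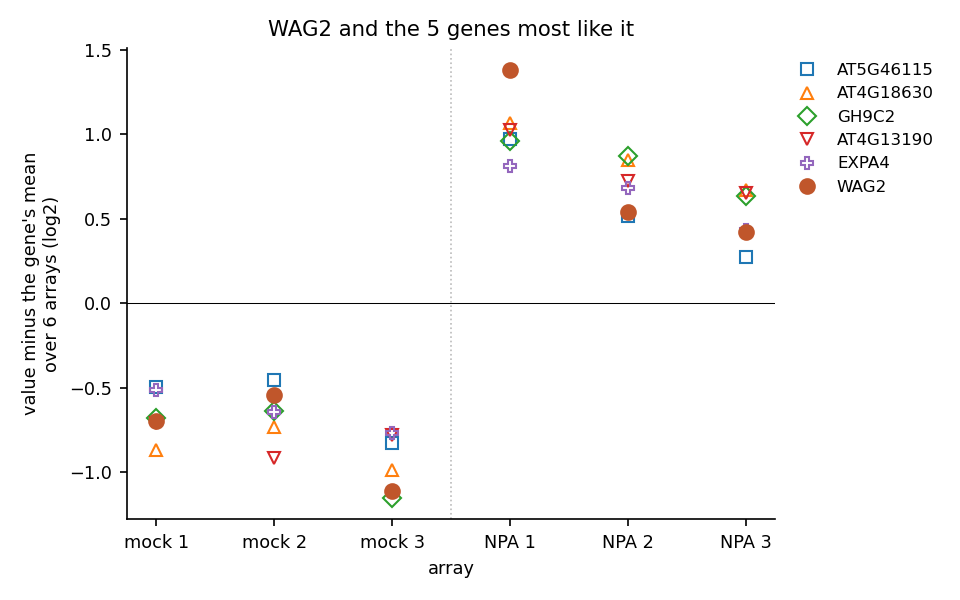
Values of WAG2 and of the 5 genes most like it on the 6 arrays, each minus the mean of the gene over the arrays (log2). All 6 genes lie below 0 on the mock arrays and above 0 on the NPA arrays, and in all 6 NPA 1 is the highest array.

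For the YUC genes many others came as near. Of the 13512 probe sets, 8155 were within 0.2 of YUC6, 8604 of YUC4 and 2427 of YUC2. The nearest were AT3G43760 (0.058) and AT5G26250 (0.060) for YUC2, AT2G28980 (0.023) and AT1G66450 (0.026) for YUC4, and PRA1.G1 (0.018) and AT4G04000 (0.020) for YUC6. None of these 6 was called, with differences from -0.17 to 0.05.

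Markers of tissues in the stem were measured in the same samples. Their lists were chosen with earlier results of these data known, so the counts describe these genes and test no tissue. The 3 measured genes of xylem and secondary wall (IRX10, IRX15 and IRX15-L), of 10 listed, all rose, as WAG2 and 2.76% of all probe sets did. IRX15-L had the lowest p (difference 1.33, limma, adjusted p = 0.00532). The mean log2 value of these 3 genes was 8.00 to 8.29 on the mock arrays and 9.22 to 9.67 on the NPA arrays, highest on NPA 2, whereas WAG2 was highest on NPA 1. MOL1, the 1 measured cambium gene of 4, rose by 0.67 (adjusted p = 0.0209). Of 2 measured phloem genes, of 5 listed, OPS rose by 1.15 (adjusted p = 0.0191) and SWEET11 differed by -0.95 (adjusted p = 0.0909), with mean values of 6.31 to 6.60 in mock and 6.38 to 6.68 in NPA. The part of these tissues in the WAG2 result was not tested.

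No gene of the other marker lists was called, where 3.00% of all probe sets were. SCL23, of the starch sheath and the 1 measured of 2, differed by -0.51 (adjusted p = 0.0594), and the 3 measured genes of the green cortex, of 6, by 0.08 to 0.41, with PRK lowest in p (adjusted p = 0.347). Of 8 epidermal and stomatal genes 4 were measured, with mean values of 4.01 to 4.10 in mock and 3.95 to 4.14 in NPA, and the lowest p was that of FAMA (difference -0.23, adjusted p = 0.303). Flower and shoot apex, where YUCCA genes are known to act, had 1 measured marker of 9. This was SPL, which lay below the lower quartile on all 6 arrays, at 3.896 to 4.031 in mock and 3.959 to 4.107 in NPA (adjusted p = 0.903).

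Genes that lie next to the 4 on the chromosome were measured only in part. Of the pairs of protein-coding genes on either side of WAG2, AT3G14360 was the only one with a probe set of its own, and it differed by 0.51 ± 0.11 (SE, limma, adjusted p = 0.0584). AT4G13270, beside YUC2, differed by -0.01 (adjusted p = 0.959). AT5G25630, beside YUC6, differed by 0.42 (adjusted p = 0.154) and AT5G25640, the next, by -0.28 (adjusted p = 0.336). AT5G11340, close to YUC4, differed by -0.20 (adjusted p = 0.337).

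**Figure D5:**
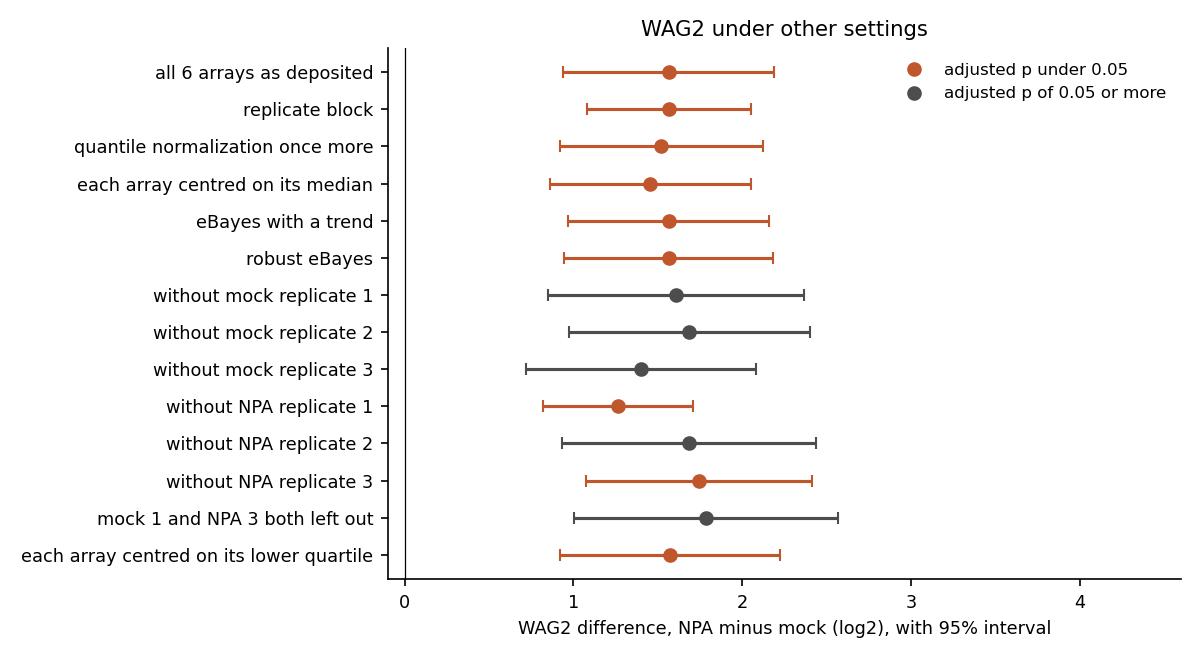
Difference of WAG2 between NPA and mock (log2) with its 95% interval under each setting, in orange where the adjusted p was under 0.05. All 14 intervals lie above 0, with differences from 1.26 to 1.79, and 5 of the settings, each with arrays left out, lost the call.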

How the data were processed

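The authors' deposited log2 expression values come from RMA. The submitters' processing notes list RMA and limma and give no version, and how probe sets were defined or filtered is not given in the sources used here. RMA corrects background and quantile-normalizes, and it gives no detection call. The medians of the deposited values still ran from 6.18 on mock 1 to 6.39 on NPA 3. Precision is limited by the number of arrays.

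The 64 control probe sets were left out and the values otherwise used as deposited. Differences (NPA minus mock), moderated standard errors and 95% intervals were computed in R 4.3.3 with limma 3.58.1 (lmFit, eBayes). P-values were adjusted by Benjamini-Hochberg over 22746 probe sets and called under 0.05. The fit was tested on simulated data with independent noise and no shift of whole arrays. That checks the code and not the calls on these arrays. Genes were named from the platform's table, updated through the TAIR10.1 gene table (13436 probe sets by gene number, 77 by symbol), with 503 probe sets of several genes and 8730 with no listed gene left unnamed. A gene described as not measured may be among these. Per gene the probe set with the highest mean was used. Of 189 list entries 184 were matched to a gene, and the other 5 were counted only in an alternative, at loci the tables do not pair with the names.

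The genes, lists and rules were chosen with earlier results of these data known. Named were the 4 genes, list genes that were called or had the lowest p of their list, and the genes nearest in pattern, 5 for WAG2 and 2 for each YUC gene; other genes of short lists and the chromosomal neighbours were named after their values were seen. Alternatives were a replicate block, other scalings, eBayes with a trend or robust, brighter probe sets alone, each array left out, no _s_at or _x_at probe sets and other thresholds.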

Additional observations from a re-analysis of the deposited data

How the results depend on the processing

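WAG2 kept its direction in all 13 alternatives and its call in 8, with adjusted p from 0.0168 (eBayes with a trend) to 0.0805. With single arrays left out its difference was 1.26 to 1.74, and with mock 1 and NPA 3 both left out, a choice made after seeing the data, it was 1.79 (adjusted p = 0.0650). These fits have fewer arrays, which alone can lose a call. YUC2 and YUC4 stayed below 0 and not called in their 13 alternatives. YUC6 was not called in any, and its difference turned to -0.0078 after quantile normalization, -0.097 after median centring and -0.078 without mock 1 and NPA 3, and ran from -0.0995 to 0.0758 with single arrays left out. The probe sets called, 683 in the comparison as reported, were 304 to 446 with single arrays left out, 397 without mock 1 and NPA 3, 225 at an adjusted p under 0.01 and 1208 under 0.1. Arrays with the same replicate number did not deviate together over all probe sets (correlations of -0.256, 0.050 and 0.043). Mock 1 and NPA 3, which stood apart on the second principal component, carry different numbers and affect these correlations. A pairing by number is therefore not seen but also not excluded. With the replicate block 449 probe sets were called, WAG2 kept its call (adjusted p = 0.0255), and no call of the 4 genes changed. The list genes called stayed at 2 or 3, and were 4 with the 5 unmatched names at their proposed loci, a count added after seeing the data. WAG2 and all 3 YUC genes were too dim for the test of brighter probe sets only, and each gene had 1 probe set, so averaging probe sets gave no other value.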

Other observations

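On the mock arrays WAG2 and YUC2 moved in parallel. Each had an SD of 0.29 or 0.30 over the 3 mock arrays, but the SD of WAG2 minus YUC2 was 0.013. Of the 22745 other probe sets, 7 (0.031%), YUC2 included, followed WAG2 this closely in mock, where the median SD of such a difference was 0.32. On the NPA arrays the SD of WAG2 minus YUC2 was 0.71, and 89.1% of probe sets followed WAG2 at least as closely. The parallel was noticed in the data, rests on 3 arrays, and was not tested.

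Of the 6 genes set beside YUC2, YUC4 and YUC6 for their pattern, 3 (AT3G43760, AT2G28980 and AT4G04000) are listed as pseudogenes in the gene table, 1 beside each YUC gene. Pseudogenes made up 923 of the 13513 probe sets with 1 gene, or 6.83%. That share covers probe sets of every level and spread, and the share among those similar to the YUC genes was not computed. Many other probe sets also lay within 0.2 of each YUC gene, and the difference in share was not tested.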
